A study of Mus musculus with 2 samples.

Results

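The H2 genes are the mouse major histocompatibility complex, the cluster on chromosome 17 that holds the class I and class II antigen-presenting molecules. They were taken here as every gene on chromosome 17 whose symbol starts with H2- in the GENCODE M21 annotation of the mouse assembly mm10, whatever its biotype. This gave 45 of 53843 annotated genes on chromosomes 1 to 19 and X, of which 34 were protein-coding and the others pseudogenes. By symbol, 32 were class I genes (H2-K1, H2-K2, H2-Bl and the H2-D, H2-Q, H2-T and H2-M genes) and 12 were class II genes (the H2-A, H2-E, H2-O, H2-P and H2-DM genes). H2-Ke6, a hydroxysteroid dehydrogenase gene that shares only the prefix, belonged to neither class.

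The mice were newborn (postnatal day 0) and of the strain B6NCrl, and CTCF-bound DNA of their whole intestine was recovered with an antibody and sequenced (ChIP-seq). There was 1 group of 2 biological replicates, as the labels number them. Each was powdered intestine pooled from several dissections, the sex of the mice was not collected, and no allele or treatment is named. No other condition was measured, so no contrast between conditions could be made. Because the tissue was whole, an occupied site cannot be assigned to a cell type, and fewer cells with a bound site cannot be told apart from less binding in each cell. Peak lists carry no expression level, so neither the tissue's markers nor the activity of the H2 genes could be read from them.

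Class I molecules pair with beta-2 microglobulin and show peptides from inside the cell to cytotoxic T cells, while class II molecules show peptides from the endosomes to helper T cells. In the intestine, class II molecules are best known on dendritic cells, macrophages and B cells, and they can also be induced on the epithelium. CTCF, a zinc-finger protein, recognises a long, directional DNA motif, marks boundaries between chromatin domains and, with cohesin, anchors chromatin loops. Class I genes arose by repeated duplication, so many of them and their surroundings are near copies of each other.

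A CTCF peak was assigned by its summit, the base of highest enrichment given by the authors. Unless another list is named, peaks are from the optimal list, which the authors filtered by IDR (irreproducible discovery rate), a score of whether the replicates order their peaks in a like way. The optimal list held 73465 peaks with a median signal of 76.0, and signal is the authors' own value for each peak. The list from the pooled reads and that of each replicate held 300000 peaks each, and weak entries are frequent in them: the pooled list had a median signal of 7.57. Signal was compared only within a list, and replicates were set side by side by rank, where rank 1 is the strongest peak. The read depth is unknown from these files.

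The DNA under the peaks that the results turn on is given here, because it shows the CTCF motif at each of these genes and its direction. Each line has 29 bases of mm10 read 5′ to 3′ along the motif's own strand, with the 19 bases matched by the motif matrix in capitals. With 1 exception, the peaks are the strongest in a window of 10 kb around any TSS (transcription start site) of the 10 H2 genes with the highest signal and of the other class II genes. The word plus or minus gives the chromosome strand of the motif.
H2-DMa and H2-DMb2 (chr17:34135208-34135597, plus): ccgacCTTCCACCAGGGGGCGGAGgtctc
H2-Ob (chr17:34235011-34235313, minus): ttacaTGGCCACCAGATGGCACCAgactc
H2-M5 (chr17:36997044-36997329, minus): tatcaCGGCCACACGAGGGCGCTGctgct
H2-Oa (chr17:34101524-34101826, plus): ataaaTCCCCACCAGGGGGCGCTCgcgtg
H2-D1 (chr17:35274778-35275091, minus): gctcaAGGCCGCCAGGGGGCAGCAggaca
H2-Ea-ps (chr17:34349478-34349763, minus): acgaaTGACCAGTAGATGGCGGAAttgac
H2-T3 (chr17:36193600-36193878, minus): cagaaGCACCAGCAGGTGGCGCTGtgagc
H2-K1 (chr17:33991861-33992149, minus): cctgtCTGCCAGTAGAGGGCGCCAgatct
H2-Ab1 (chr17:34249939-34250223, plus): ctgtgTTAACACTAGAGGGCGACTttgag
H2-Pb and H2-Pa (chr17:34077622-34077889, plus): tgtttGTACCACAAGAGGGCGCTCtaggc
H2-Aa (chr17:34285918-34286176, minus): aaactGTACCAGCAGGGGGCAGCGtgcag
H2-DMb1 (chr17:34164609-34164781, minus): agcaaTGGCCCAGAGGTGGCGCCGcgtgc

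CTCF was found beside nearly every class II gene and beside fewer of the class I genes, and most class I genes without a summit were H2-M genes. A summit lay within 10 kb of a TSS of 11 of 12 class II genes (91.7%, 95% Wilson interval 64.6% to 98.5%) and of 18 of 32 class I genes (56.2%, 39.3% to 71.8%). Over the H2 genes together it was 30 of 45 (66.7%, 52.1% to 78.6%). The same held for 55.2% of all annotated genes and 73.0% of all protein-coding genes, so the class I share was near that of all genes under these settings. These intervals cover the counting of genes only: neighbouring genes share peaks and are no replicates, and the difference between the classes was not tested. Among protein-coding genes alone the counts were 8 of 9 for class II (88.9%) and 12 of 24 for class I, the latter below the 73.0% of all protein-coding genes. Of the class I pseudogenes 6 of 8 had a summit (75.0%), against 3816 of 12713 annotated pseudogenes, so the overall class I share combines a lower and a higher one. It also differed by block: 3 of 14 H2-M genes had a summit (21.4%), against 15 of the other 18 class I genes (83.3%, 60.8% to 94.2%). The class I share outside the H2-M genes was thus close to that of class II.

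The strength of the best peak overlapped between the classes, with a higher median in class II. The strongest peak near a class II gene had a signal of 112 to 658, with a median of 388 over the 11 genes that had one. Near class I genes it ran from 16.6 to 422, with a median of 135 over 18. H2-M5, H2-D1, H2-T3, H2-K1 and H2-M10.5-ps1 of class I, at 316 to 422, stood above H2-Ab1, H2-Pb, H2-Pa, H2-Aa and H2-DMb1 of class II. In class II, H2-DMa and H2-DMb2 share their strongest peak, as do H2-Pb and H2-Pa, so that 9 peaks stand behind the 11 values. The median over all annotated genes with a summit in the window was 190, and over protein-coding genes 234. All 11 of these class II genes, and 14 of the 18 class I genes, had a peak above the median of the optimal list. Of all annotated genes, 29727 had a summit in the window and 21162 had one above that median. As shares of every gene in the set, this was 91.7% of class II, 43.8% of class I and 39.3% of all annotated genes. The class I share was thus near that of all genes.

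**Figure D1:**
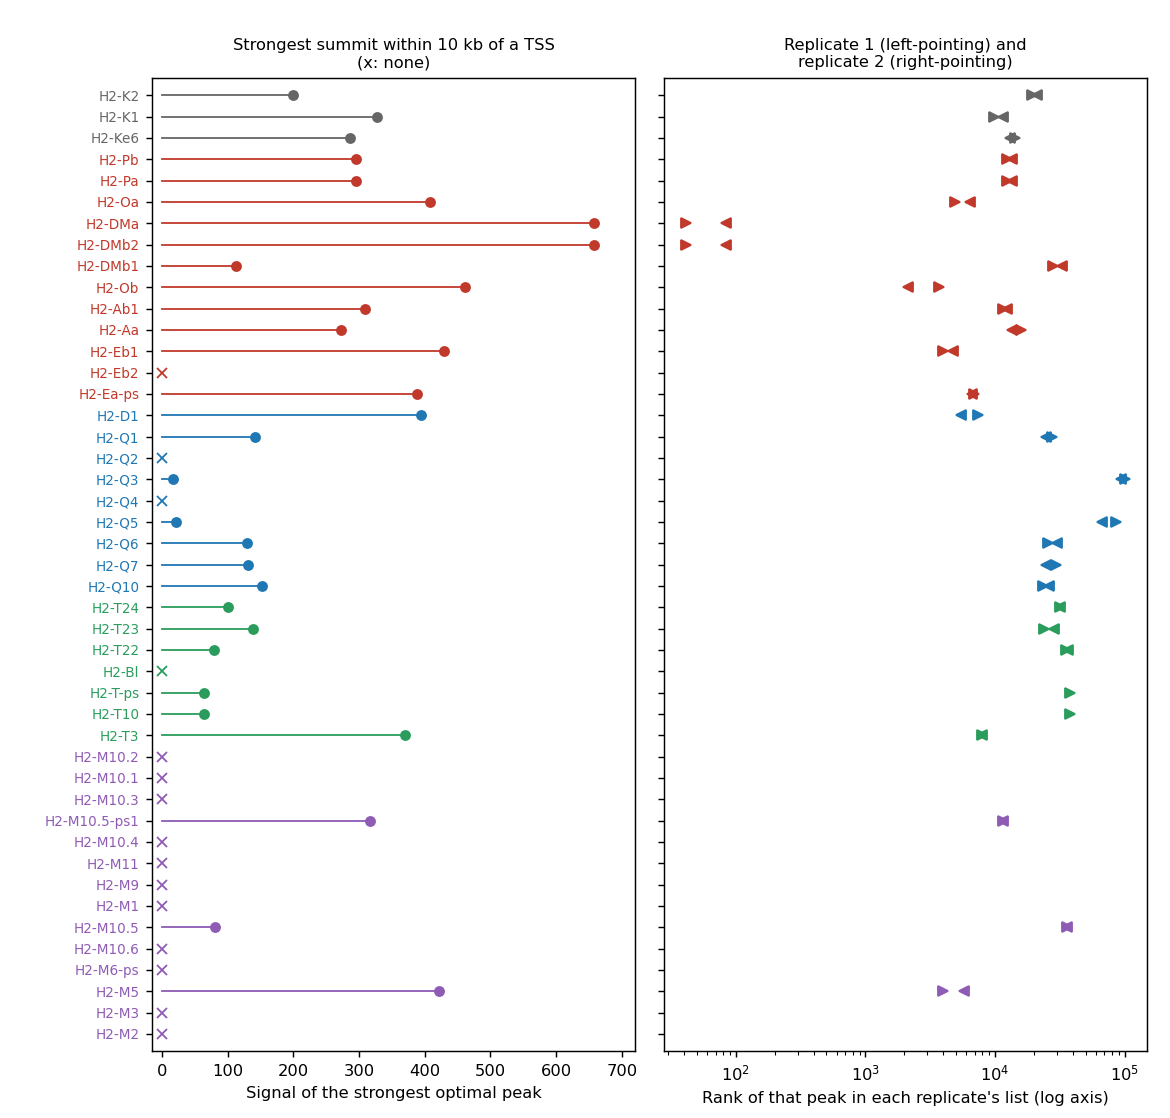
Signal of the strongest optimal peak within 10 kb of a TSS (left, linear axis; a cross marks a gene with none) and the rank of that peak in each replicate's own list (right, log axis, low ranks are strong), for the 45 H2 genes in chromosome order. Colours mark the K (grey), class II (red), D and Q (blue), T (green) and M (purple) blocks. The class II genes sit between 112 and 658 apart from H2-Eb2, and the crosses gather among the H2-M genes.

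Within class II, the strongest site belonged to the DM genes, whose products exchange peptides on class II molecules in the endosome. A peak of signal 658 lay 0.220 kb upstream of the nearest TSS of H2-DMa, the DM alpha chain gene, and 7.90 kb upstream of H2-DMb2, a DM beta chain gene. Here and below, a distance from a gene is from the nearest of its annotated TSSs, which can lie inside the gene. The peak ranked 52 of 73465, among the strongest 0.0708% of peaks. In replicate 1 its signal was 318 (rank 84) and in replicate 2 it was 342 (rank 41), so it stood at the top of both lists. H2-DMa and the class I pseudogene H2-K2 had 7 summits each, the most among the H2 genes, but H2-DMa has 8 annotated start sites and windows of 37.5 kb in all, against 20.0 kb for H2-K2. Counted from the outermost 5′ end of the gene alone, H2-DMa had 4 and H2-K2 7, and the peak of signal 658 then lay outside the H2-DMa window. H2-DMb1, the other DM beta chain gene, had the weakest best peak of class II. Its signal was 112, at 7.86 kb downstream of its TSS, with 45.6 (rank 32905) in replicate 1 and 63.6 (rank 28188) in replicate 2. Thus the neighbouring beta chain genes of DM held the highest and the lowest value of the class under this assignment. The H2-DMb2 value is that of the peak shared with H2-DMa. Counted from its outermost 5′ end alone, H2-DMb1 had no summit in the window.

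The O genes encode the alpha and beta chains of an inhibitor of DM that is best known in B cells. The best H2-Ob peak, with a signal of 461 (rank 2888), lay 3.73 kb upstream of its TSS, with ranks 2138 and 3717 in replicates 1 and 2 and signals of 239 and 226. H2-Oa had one of signal 408 (rank 5607) at 9.25 kb downstream, with 194 (rank 6423) and 215 (rank 4885). Both genes therefore lay beside a site well above the list's median, on opposite sides of the DM genes. A weaker peak of signal 130 lay 1.22 kb upstream of H2-Oa.

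The A genes encode the chains of the main class II antigen-presenting molecule. H2-Aa, the alpha chain gene, had a peak of signal 273 (rank 14600) at 1.73 kb downstream of its TSS, with signals of 141 and 131 in replicates 1 and 2. For H2-Ab1, the beta chain gene, the strongest peak was 309 (rank 12020), with 149 and 162 in the replicates. That peak lay 7.62 kb upstream of the outermost start of H2-Ab1, inside an intron of H2-Ob, whose window holds it too. The summit nearest to a TSS of H2-Ab1 was weak, with a signal of 53.2, and ranked 43109 and 45963 in the replicates. It lay inside the gene, 0.885 kb downstream of another of its 7 annotated TSSs.

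The E genes encode a further antigen-presenting class II molecule. H2-Eb1, its beta chain gene, held a peak of signal 430 (rank 4392) inside an intron, 4.03 kb downstream of its TSS, with 210 in replicate 1 and 223 in replicate 2. H2-Ea-ps, the alpha chain locus that the annotation lists as a polymorphic pseudogene, had one of signal 388 (rank 6727) at 4.98 kb upstream, with 193 and 196. Between them, H2-Eb2 was the class II gene without a summit: the nearest was the H2-Eb1 peak, 12.1 kb upstream. The pooled list had 1 summit within 10 kb of H2-Eb2, with a signal of 4.59 and rank 284610, near the floor of that list. The 32-base words of its window were 93.2% unique in the genome. The pseudogenes H2-Pb and H2-Pa shared a peak of signal 296 (rank 12929), 1.59 kb upstream of H2-Pb and 6.84 kb upstream of H2-Pa, with 141 and 155 in the replicates.

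The class II block, from 10 kb before H2-Pb to 10 kb after H2-Ea-ps, was densely but unevenly occupied, and not only at the H2 genes. It held 32 summits in 291 kb (chr17:34063762-34354645), or 11.0 per 100 kb, against 3.56 per 100 kb over chromosome 17 and 2.87 over chromosomes 1 to 19 and X. Neighbouring summits in the block were up to 36.0 kb apart. The stretches without H2 genes on either side of the D and Q block had like densities, 10.7 and 11.9 per 100 kb. The class II block also holds 14 protein-coding gene starts, and the part that gene density has in its summit density was not tested. All 32 had a summit within 100 bases in each replicate's list, and 30 were among each replicate's strongest 73465 peaks. These counts follow in part from the IDR filter, which selects peaks on which the replicates agree.

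Of the 32 peaks of the block, 23 lay within 10 kb of a class II gene and the other 9 did not. Those others included an adjacent pair of signals 360 and 435 between H2-DMb1 and Psmb9, a gene of an immunoproteasome subunit, with summits 1.47 kb apart. Another was a peak of signal 385 (rank 6937) 0.104 kb upstream of the TSS of Tap2, which encodes a chain of the peptide transporter for class I loading. Its replicate signals were 179 and 208. The other peaks of the block outside these windows had signals of 28.5, 55.5, 69.4, 95.2, 127 and 237.

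A CTCF motif was called at 28 of the 32 peaks of the block, 16 on the plus strand and 12 on the minus strand. A motif was called at 72.8% of 40979 optimal peaks on chromosomes not used to build the matrix and at 4.70% of flanking windows. The 4 peaks without one had signals of 28.5, 76.0, 130 and 165. From H2-Pb to the strong peak at H2-DMa the motifs read plus, with 1 exception of signal 103 on the minus strand near the start of Brd2, a bromodomain gene. From H2-Aa to the end of the block the 3 peaks of signal 273, 430 and 388 read minus, and 1 weak peak of signal 26.1 read plus. Of the 27 neighbouring motif pairs in the block, 6 were convergent (plus then minus), 5 divergent and 16 in the same direction.

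**Figure D2:**
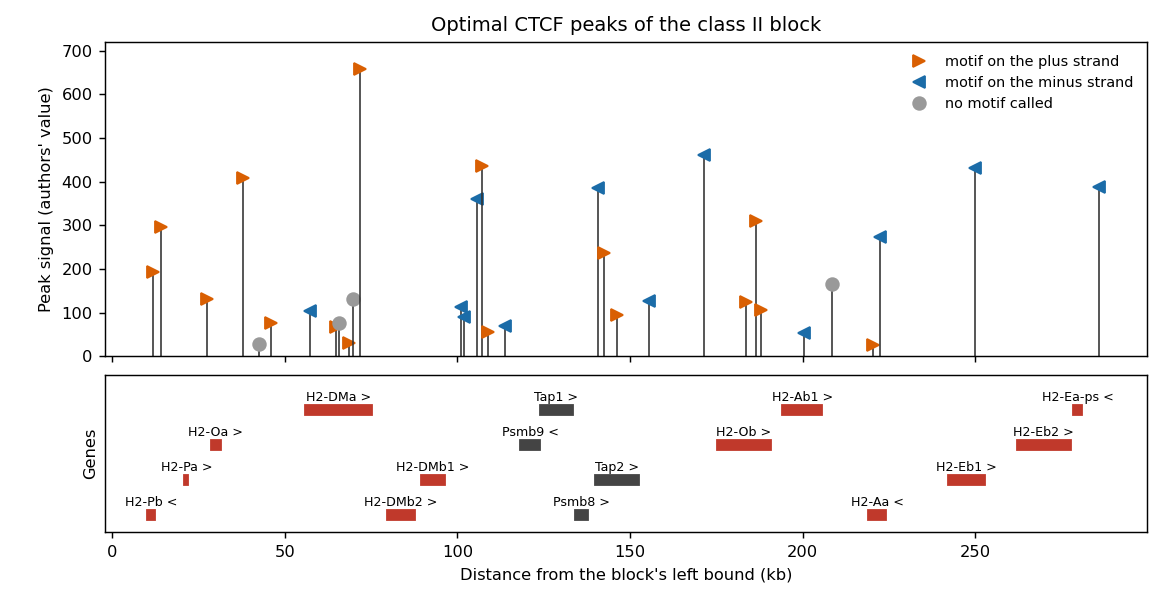
Signal of each optimal peak of the class II block against distance from the block's left bound (kb, linear axes), with the motif strand as the marker; below, H2 class II genes (red) and the antigen-processing genes among them (dark grey), each with its direction of transcription. The peak of signal 658 stands beside H2-DMa, the motifs left of it point right with 1 exception, and the 3 strongest motifs from H2-Aa to the end point left.

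The classical class I genes, H2-K1 and H2-D1, present peptides on nearly all nucleated cells, and both lay beside strong CTCF sites. H2-D1 had 4 summits in its window and its strongest peak had a signal of 395 (rank 6336), 8.93 kb downstream of its TSS, with 203 (rank 5439) in replicate 1 and 192 (rank 7443) in replicate 2. Counted from the outermost 5′ end of the gene alone, H2-D1 had 2 summits, and the peak of signal 395 then lay outside the window. Peaks of signal 367 and 348 lay upstream, so strong sites lay on both sides of the gene. H2-K1 had 3 summits, the strongest of signal 327 (rank 10756) at 4.67 kb downstream of its TSS, with 155 (rank 11577) and 175 (rank 9737). That summit, whose sequence is printed above, lies in sequence that is repeat-masked in the assembly. Neither gene had a summit within 1 kb of a TSS.

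The pseudogene H2-K2 had 7 summits in its window, of signals 16.8 to 199. Its strongest peak lay 2.46 kb upstream and had 92.5 in replicate 1 and 107 in replicate 2. H2-Ke6 had 3 summits. The strongest, of signal 286, lay 6.29 kb upstream with 144 and 143 in the replicates, and one of signal 126 lay 0.0590 kb downstream of a TSS.

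The H2-Q genes are nonclassical class I genes, among them H2-Q7, which encodes a form of Qa-2, and H2-Q10, which encodes a secreted molecule. A summit lay near 6 of the 8 (75.0%), against 55.2% of all annotated genes. Their strongest signals were 16.6 to 153 (median 130), so that each of the 6 stood below the median of 190 over all annotated genes with a summit. H2-Q10 was highest with 153, with 69.0 in replicate 1 and 83.1 in replicate 2. H2-Q7 had 131 (73.1 and 57.5), H2-Q6 had 129 (54.3 and 73.0), and H2-Q1 had 141 (74.6 and 65.1). H2-Q5 and H2-Q3, which the annotation lists as pseudogenes, had only weak peaks, of signal 22.0 (12.2 and 8.48) and 16.6 (7.03 and 6.75). With the strongest 73465 peaks of replicate 2 alone neither H2-Q5 nor H2-Q3 had a summit, and with those of replicate 1 alone H2-Q3 had none. H2-Q2 and H2-Q4 had no optimal summit, and their strongest pooled peaks ranked 122384 and 118027 of 300000.

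The same DNA sequence underlay CTCF peaks upstream of 6 class I genes. This set was chosen after its values were seen. The sequence is shown as 29 bases with the motif in capitals, first the form found 6 times and then the variant at H2-Q6, which differs by T23C, counted from 1 at the 5′ end of the printed run.
H2-K2, H2-K1, H2-Q1, H2-Q5, H2-Q7, H2-Q10: tgtttCTTCCACCAGGCGGCGCTGttgcc
H2-Q6: tgtttCTTCCACCAGGCGGCGCCGttgcc

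The sequence was taken from under the peak upstream of H2-K1, and copies with up to 3 mismatches were searched for in the H2 cluster. All 7 copies in the H2 cluster had an optimal summit within 150 bases, and all 7 read in the direction of transcription of the nearest H2 gene. The exact form occurred 6 times in chromosomes 1 to 19, X and Y, and all 6 were in the H2 cluster. Copies with mismatches outside the cluster were not searched for. The copies lay 3.53 kb upstream of H2-K2 and 3.29 kb upstream of H2-K1, which are transcribed from the minus strand. On the plus strand they lay 4.13 kb upstream of H2-Q5, 4.18 kb upstream of H2-Q6, 4.11 kb upstream of H2-Q7 and 4.21 kb upstream of H2-Q10. The copy nearest to H2-Q1 was 24.4 kb upstream, outside its window. Signals were 163 at H2-K2, 196 at H2-K1, 153 at H2-Q1, 22.0 at H2-Q5, 129 at H2-Q6, 131 at H2-Q7 and 153 at H2-Q10. The signal thus varied over copies of identical sequence, with the H2-Q5 copy lowest. The 32-base words under the H2-Q5 peak were 24.5% unique, those under the H2-Q7 peak 29.1%, and those under the other 5 peaks 55.1% to 79.5%. The part of sequence uniqueness in these signals was not tested.

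**Figure D3:**
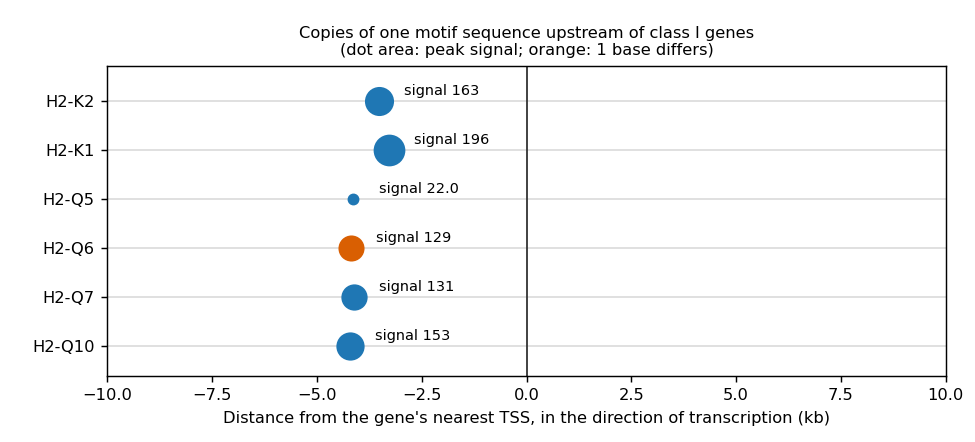
Position of the repeated motif sequence relative to the nearest TSS of 6 class I genes (kb, negative is upstream in the direction of transcription), with dot area proportional to the signal of the optimal peak at the copy; orange marks the copy at H2-Q6 that differs by 1 base. The copies lie between 3.29 and 4.21 kb upstream, and the copy near H2-Q1, 24.4 kb away, is not drawn.

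The H2-T genes include H2-T3, which encodes the thymus leukaemia antigen known from the intestinal epithelium. H2-T3 was the H2-T gene with the strongest site, a peak of signal 370 (rank 7910) at 3.46 kb upstream of its TSS, with 182 (rank 7972) in replicate 1 and 188 (rank 7967) in replicate 2. A further peak near it had a signal of 273. H2-T23, which encodes the Qa-1 molecule that engages receptors of natural killer cells, held a peak 0.767 kb downstream of its TSS with a signal of 139, and with 58.7 (rank 28661) and 81.0 (rank 24096) in the replicates. H2-T24 had a peak of signal 100, without a called motif, 0.201 kb upstream, with 48.6 and 50.7. By the strongest peak within 10 kb, H2-T23 thus came next after H2-T3 among the H2-T genes. The strongest peak of the T block, of signal 584, lay outside these windows.

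H2-T22 and H2-T10 are known as genes of ligands of gamma delta T cell receptors, though the annotation lists H2-T10 as a polymorphic pseudogene. H2-T22 shared with H2-T23 a peak of signal 78.5, with 37.8 and 41.7 in the replicates. H2-T10 shared with the pseudogene H2-T-ps a peak of signal 63.4 that had no summit within 100 bases in replicate 1 and a signal of 36.2 in replicate 2. Inside H2-T23 and H2-T-ps lay identical 29-base motif sequences with signals of 139 and 57.6. H2-Bl, a class I pseudogene, was the H2-T block gene without a summit. Its nearest lay 20.9 kb away and its strongest pooled peak had a signal of 11.0. The conservative IDR list did hold a summit near H2-Bl.

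The H2-M genes at the distal end of the cluster had the lowest share of genes with a summit among the blocks. A summit lay near 3 of the 14: H2-M5 with a signal of 422 (rank 4778), H2-M10.5-ps1 with 316 (rank 11534) and H2-M10.5 with 80.5 (rank 35605). At H2-M5 the replicates gave 200 (rank 5739) and 223 (rank 3981), at H2-M10.5-ps1 155 and 162, and at H2-M10.5 38.3 and 40.6. The 3 summits lay 7.65, 9.01 and 8.41 kb upstream of their genes, in that order. The other 11 had none: H2-M1, H2-M2, H2-M3, H2-M6-ps, H2-M9, H2-M10.1, H2-M10.2, H2-M10.3, H2-M10.4, H2-M10.6 and H2-M11. Of the 18 class I genes outside this block, 15 had a summit (83.3%), against 3 of the 14 in it (21.4%). The share was 55.2% over all annotated genes and 73.0% over protein-coding genes.

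Of the 9 H2-M genes best known from the vomeronasal organ (H2-M1, H2-M9, H2-M11 and the protein-coding H2-M10 genes), where they accompany pheromone receptors, 1 had a summit, H2-M10.5. That is 11.1%, against 73.0% of all protein-coding genes. H2-M3, which presents formylated bacterial peptides, had its nearest summit 19.5 kb upstream, and its strongest pooled peak had a signal of 5.43 (rank 221623). The pooled list, which has a summit within 10 kb of 77.8% of all annotated genes, had one near 39 of the 45 H2 genes, including all 12 class II genes. The 6 without a pooled summit were all H2-M genes: H2-M1, H2-M2, H2-M9, H2-M10.1, H2-M10.3 and H2-M10.4.

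The 10 kb limit parts genes with close distances. Just inside it, the nearest summit of H2-M10.5-ps1 lay 9.01 kb away and that of H2-M10.5 8.41 kb away. Just outside it were H2-M6-ps at 10.1 kb, H2-Q4 at 10.4 kb, H2-M10.3 at 10.6 kb, H2-M10.6 at 12.0 kb, H2-Eb2 at 12.1 kb and H2-Q2 at 12.4 kb. With a window of 50 kb, 42 of the 45 genes had a summit, and those still without one were H2-M1, H2-M9 and H2-M11. Class I then stood at 29 of 32 and class II at 12 of 12, and 80.4% of all annotated genes had one. With a window of 2 kb the counts were 6 of 32 and 6 of 12, against 31.6% of all annotated genes.

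At the promoters of the H2 genes themselves the share was somewhat below that of all annotated genes. For the protein-coding genes of both classes it was well below that of all protein-coding genes. A summit within 1 kb of a TSS was present at 9 of the 45 (20.0%), against 25.3% of all annotated genes. The 9 were H2-DMa, H2-Pb and H2-Ab1 of class II, H2-Q3, H2-Q6, H2-T23, H2-T24 and H2-T-ps of class I, and H2-Ke6. Among protein-coding genes it was 3 of 24 for class I (12.5%) and 2 of 9 for class II (22.2%), against 45.7% of all protein-coding genes. Among pseudogenes it was 2 of 8 for class I (25.0%) and 1 of 3 for class II, against 4.21% of all annotated pseudogenes. These differences were not tested. Counting promoters of any gene, 19 of the 61 peaks within 10 kb of an H2 gene lay at one, 12 in introns and 26 between genes. The strongest peak at an H2 gene's own promoter was the one of signal 658 at H2-DMa, and the next was of signal 192 at H2-Pb.

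Over the whole H2 cluster, from 10 kb before H2-K2 to 10 kb after H2-M2, the optimal list had 285 summits in 3529 kb, or 8.08 per 100 kb. By block the density was 19.1 per 100 kb at the K genes, 11.0 in the class II block, 8.63 at the D and Q genes, 6.84 at the T genes and 3.36 at the M genes. In the stretches without H2 genes it was 3.89 between the K and class II blocks, 10.7 between the class II and the D and Q blocks, 11.9 between the D and Q and the T blocks and 8.11 between the T and M blocks. The M block had 41 summits in 1219 kb, a density near the 3.56 per 100 kb of chromosome 17. Only 61 of the 285 peaks lay within 10 kb of an H2 gene, 51 of them near 1 gene and 10 near 2.

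The widest stretch without a summit was 308 kb, between chr17:36418561 and chr17:36726245, and it holds H2-M10.4, H2-M11, H2-M9 and H2-M1. The pooled list had 2 summits inside it. The stretch had no unknown bases in the assembly, and 70.2% of its 32-base words were unique. The next widest gap, of 112 kb, held no H2 gene.

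**Figure D4:**
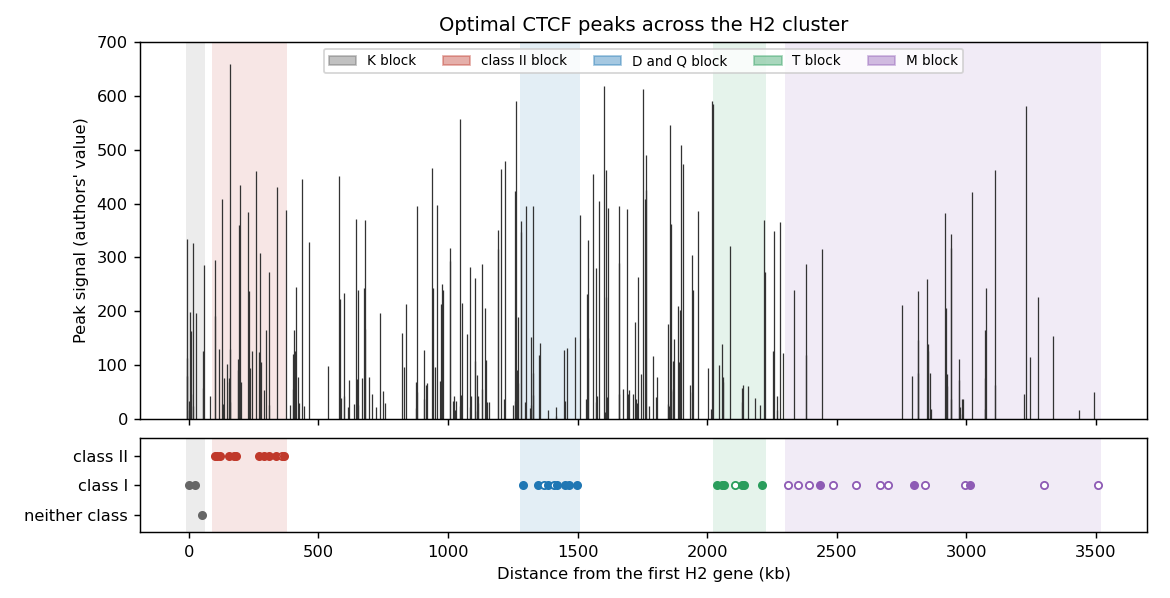
Signal of each of the 285 optimal peaks of the H2 cluster against distance from the first H2 gene (kb, linear axes), with the blocks of H2 genes shaded; below, the genes by class, filled where a summit lay within 10 kb of a TSS and open where none did. The class II genes are filled but for 1, and the M block, with 41 peaks in 1219 kb, holds the longest empty stretch.

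Of the 285 peaks, 273 had a summit within 100 bases in both replicates' lists, and 243 in the strongest 73465 peaks of both. Of the 61 peaks near an H2 gene 58 were in both, and for 57 of the 58 the ranks in the replicates lay within 2-fold of each other. The IDR filter already selects peaks on which the replicates agree, so high counts follow in part from how the list was made. No share over all optimal peaks is set beside them, so they give no result particular to the H2 cluster. A motif was called at 216 of the 285 (75.8%, 95% Wilson interval 70.5% to 80.4%), against the 72.8% given above. Near H2 genes it was 50 of 61 (82.0%, 70.5% to 89.6%). Of 215 neighbouring motif pairs in the cluster 20.9% were convergent, 20.5% divergent and 58.6% in the same direction, against 23.6%, 23.6% and 52.7% over chromosomes 1 to 19 and X.

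Because class I genes are near copies, part of their sequence cannot be told apart by short reads, and how such reads were handled is not given in the sources used here. The share of 32-base words in a gene's windows that occur once in the genome had a median of 93.2% for class II and 70.5% for class I. It was 45.8% in the D and Q block and 47.1% in the T block, the blocks where the strongest peaks had medians of 131 and 89.5. In the M block it was 75.0%, with 74.6% for the 11 genes without a summit and 75.4% for the 3 with one. Over class I, genes with a summit had a lower median (60.6%, range 21.4% to 93.0%) than those without (72.2%, 38.1% to 93.8%). The part of sequence uniqueness in the signals and counts was not tested.

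**Figure D5:**
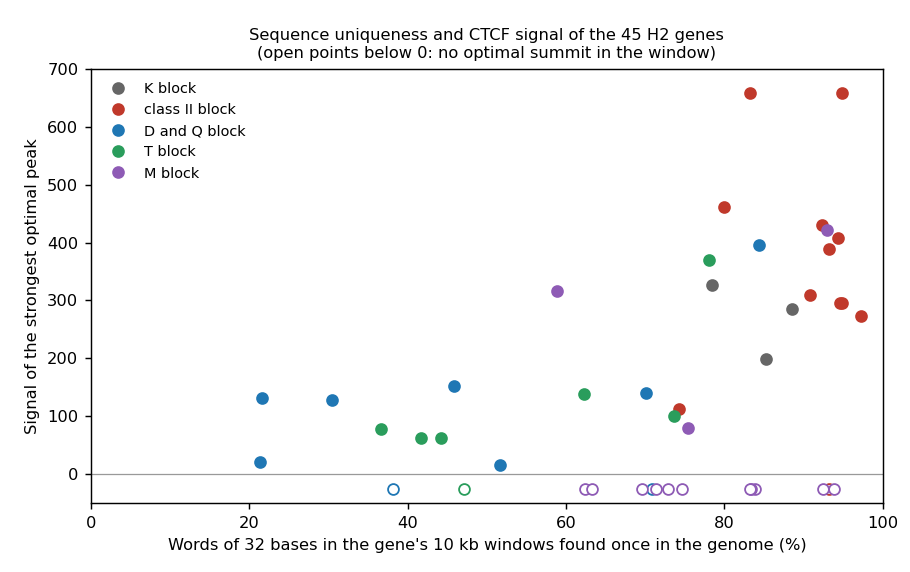
Signal of the strongest optimal peak within 10 kb of a TSS against the share of 32-base words in the gene's windows that occur once in the genome (%), for the 45 H2 genes coloured by block; open points below 0 are genes without a summit and have no signal. Apart from H2-D1 and H2-T3, the D and Q and T genes have signals of at most 153 and spread down to 21.4%; the class II genes lie at 74.3% or more, and the open points of the M block at 62.4% to 93.8%.

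The other genes of antigen presentation were taken from a list of 32 genes. A summit lay within 10 kb of 28 of them (87.5%), with a median strongest signal of 208, against 73.0% and 234 for protein-coding genes. By role it was 13 of 14 genes of class I peptide loading, 5 of 6 of class II processing and 10 of 12 regulators of H2 transcription. Those without a summit were Tap1, the partner chain of Tap2, Lgmn, an endosomal protease, Ciita, the master activator of class II transcription, and Nfyb, a subunit of a factor that binds class II promoters. The conservative IDR list did hold a summit near Ciita, the strongest 73465 peaks of replicate 1 alone held one near Tap1, and those of replicate 2 alone held one near Lgmn. The pooled list held summits near all 4.

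Of the list's genes on chromosome 17, Tapbp, which tethers class I molecules to the transporter, had a peak of signal 413 (211 and 203 in the replicates) at 0.415 kb downstream of a TSS. Tap2 and Psmb8, an immunoproteasome subunit gene, shared the peak of signal 385. Psmb9 had one of signal 69.4, with 20.8 in replicate 1 and 45.2 in replicate 2, and Nfya one of 212 (98.4 and 114). Among the 5 strongest on the other chromosomes were Ifi30, Psmb10, Ctss and Nfyc. Ifi30, a thiol reductase of class II processing, had 677 (rank 35, with ranks 34 and 35 in the replicates), above the H2-DMa peak. Psmb10, an immunoproteasome subunit gene, had 470, Ctss, an endosomal protease gene, 446, and Nfyc, a further subunit of the factor that Nfyb belongs to, 379.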

How the data were processed

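Peak lists on mm10 were used for 2 replicates, for their pooled reads and for the optimal and conservative IDR lists. By the notes deposited beside them, replicate and pooled lists were derived from alignments plus 1 file whose role is not stated, and the IDR lists from those lists. For aligner, peak caller, versions and IDR threshold: not given in the sources used here. The authors deposited for each peak a signal (normalization not stated), a score and a −log10 q-value; only the signal and the summit offset were used. The lists give no read counts, so depth and its precision are unknown.

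A summit was the peak's start plus the deposited offset, and coordinates are printed 1-based. A gene had a summit when one lay within 10 kb of the 5′ end of any of its GENCODE M21 transcripts. The cluster and its blocks reached 10 kb beyond their outermost genes. A replicate matched a peak when its summit lay within 100 bases. The motif matrix of 19 bases was trained for 6 rounds (pseudocount 1) on the 5000 peaks of highest signal from even-numbered chromosomes. Its threshold was the score that 5% of training windows 1 kb away reached, and the best match within 100 bases of a summit was scored. Word uniqueness was counted on chromosomes 1 to 19, X and Y, both strands. Counts are descriptions, since there is 1 group and neighbouring genes share peaks; no test was run. The members, lists and rules were chosen with earlier results of these data known. Named were every class II gene, H2-K1, H2-K2, H2-Ke6, H2-D1, H2-T23, H2-M3 and H2-Bl. So were the 10 strongest members, all members without a summit, the peaks of the class II block, the pathway genes on chromosome 17, the 5 strongest others and those without a summit. Of what this rule takes, 1 gene and 1 sequence are not reported here. Any further H2 gene was named with its values known. The alternatives were other lists, windows, motif settings and each replicate alone. The counting and motif steps were tested on simulated data. Python 3.11.15, numpy 2.4.6, scipy 1.17.1, numba 0.67.0 and matplotlib 3.10.9 were used.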

Additional observations from a re-analysis of the deposited data

How the results depend on the processing

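The class II count stayed at 10 to 12 of 12 in every list and with windows of 10 kb or more, and lay above the share of all annotated genes in each of these settings. The class I share changed sides of that of all annotated genes. It was higher as reported (56.2% against 55.2%), in the pooled list (81.2% against 77.8%) and with peaks above the median signal (43.8% against 39.3%). It was also higher with 50 kb (90.6% against 80.4%) and from the outermost 5′ end alone (56.2% against 52.7%). It was lower in the conservative list (53.1% against 54.3%) and with 2 kb (18.8% against 31.6%). It was also lower without replicate 1 (16 of 32 genes against 55.3%) and without replicate 2 (53.1% against 55.1%). With a window of 2 kb the counts were 13 of 45 for all H2 genes, below the 31.6% of all annotated genes, 6 for class I and 6 for class II, and with 50 kb class I was at 29. Keeping peaks above the median signal left 172 summits in the cluster. At the score that 1% of flanking windows reach, 128 cluster peaks had a motif, and the share over the peaks not used in training fell with it, to 41.2%. With 1 replicate left out, by taking the strongest 73465 peaks of the other, the counts ranged over 28 to 29 for all H2 genes, 16 to 17 for class I and 28 to 29 for the antigen presentation genes, with 11 for class II in both cases. The cluster then had 287 to 291 summits and the class II block 11.3 to 11.7 per 100 kb. The conservative list lost H2-Q3 and H2-Q5 and gained H2-Bl. Counting from the gene's outermost 5′ end alone lost H2-DMb1 and took H2-DMa from 7 summits to 4. It also took H2-D1 and H2-Ob from 4 to 2 each and H2-Ab1 from 4 to 3. Of the antigen presentation genes, Psmb9 lost its summit, which left 27 of 32. Peaks above the median lost H2-Q3, H2-Q5, H2-T-ps and H2-T10. Depth is unknown, so weak peaks and missing ones cannot be set against read numbers. No paired analysis was possible because there is only 1 group of samples.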
